A study of Mus musculus with 12 samples.

Results

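The effect of swimming on gene expression was read in mouse breast tumours by setting 6 RNA sequencing libraries from tumours of mice that swam against 6 from tumours of mice that did not, with curcumin (given or not given) as a covariate. All 12 of the 12 libraries of the study entered the comparison, and each of 13638 tested genes out of 21899 measured had its swimming difference estimated. All mice were BALB/c, 4 to 6 weeks old at the start, and carried tumours of 4T1-LUC, a mammary carcinoma line of the same mouse strain that carries luciferase, inoculated subcutaneously at the chest wall and lateral abdominal wall. The swimming group received corn oil by gavage and swam for 30 min, beginning about 30 min after gavage. The combination group received curcumin at 100 mg/kg in the same oil and swam in the same way. The curcumin group received curcumin at 100 mg/kg in corn oil without swimming, and the control group received corn oil alone. Each group had 3 libraries, named here by group and number (swimming 1 to 3, combination 1 to 3, curcumin 1 to 3, control 1 to 3).

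Whether the 3 libraries of a group came from separate tumours or animals is not stated in the labels, and p-values therefore measure only the spread between these libraries. The duration of the treatment, the time between the last swim and collection, and the hour of collection are not given in the sources used here. Levels are in CPM (read counts relative to library size, scaled by TMM), differences are log2 fold changes with their standard error (swimming and combination minus curcumin and control), and a gene was called at a Benjamini-Hochberg adjusted p of 0.05 or below from edgeR over all 13638 genes. In bulk tumour RNA, fewer cells of a type and less RNA per cell cannot be told apart.

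Swimming is a physical and, in mice, a stress stimulus. It raises circulating glucocorticoids and catecholamines. Glucocorticoids act through the glucocorticoid receptor, a transcription factor that binds palindromic response elements and induces genes such as Per1, Klf9, Tsc22d3 and Sgk1, while catecholamines signal through cAMP and the factor CREB, which drives immediate early genes such as Fosb and Nr4a1. Per1 and Bhlhe41 are also parts of the circadian clock, whose core activators bind E-box elements. Exercise has been studied in tumour-bearing mice for its effects on immune infiltration, vessels and oxygen supply, and lists of genes for each of these were read here.

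Library totals lay between 15069348 and 17278826 counts. Tumour epithelial markers were present in every library, with a summed level of 3678 to 4106 CPM in swimming, 3762 to 3912 CPM in combination, 3182 to 3675 CPM in curcumin and 3835 to 4035 CPM in control. The spread between libraries of a group was unequal: the biological coefficient of variation was 16.3% in swimming, 6.47% in combination, 12.4% in curcumin and 26.7% in control. Control 2 and swimming 2 stood apart through their low skeletal muscle markers (mean centred log2 CPM of -2.32 in swimming 2 and -2.93 in control 2, against -0.46 to 1.84 in the other libraries). Counts of called genes that rest on them are given with and without them.

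Swimming changed 188 of 13638 genes (1.38% of those tested), 95 higher (0.697%) and 93 lower (0.682%), and the changes were small: the median absolute log2 difference of the called genes was 0.45, and 21 genes changed by 1 or more. All 188 differed in the same direction without curcumin (swimming minus control) and with it (combination minus curcumin). They were called on the average of these 2 contrasts, which favours equal signs. Among them, 153 had 3 against 3 libraries that did not overlap at both curcumin levels, 73 of them higher and 80 lower. Over all tested genes, 255 (1.87%) were higher and 263 (1.93%) lower without overlap at both levels. Of the 188, 0 were called for a difference of the swimming effect between curcumin levels. Across all 13638 genes the effects at the 2 levels shared their sign in 57.5% and correlated at a Pearson r of 0.21 and a Spearman rho of 0.17, a description over genes, which are not independent replicates.

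**Figure D1:**
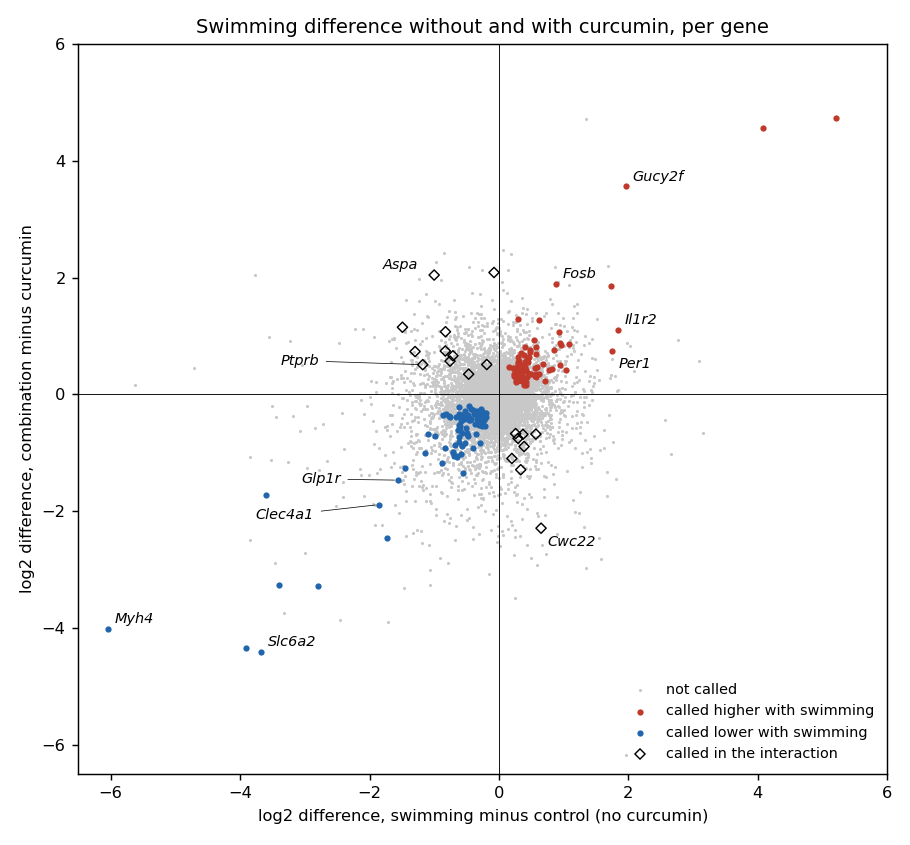
Each point is 1 of the 13638 tested genes, with the log2 difference of swimming minus control on the x axis and of combination minus curcumin on the y axis. Red points are called higher with swimming and blue points lower, open diamonds are called in the interaction, and 5 genes, 1 of them called, lie outside the axes. Called genes sit in the upper right and lower left corners, whereas the 19 interaction genes sit in the other corners.

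The number of called genes changed when single libraries were left out. It was 2 without swimming 1, 117 without swimming 2 and 292 without swimming 3. Leaving out combination 1, 2 or 3 gave 26, 3 and 19 genes. Leaving out curcumin 1, 2 or 3 gave 110, 50 and 26 genes, and leaving out control 1, 2 or 3 gave 465, 577 and 90 genes. With control 2 and swimming 2 both left out, 518 genes were called, 173 of them among the 188. When the 3 closely similar combination libraries were summed into 1, a single gene was called, Slc6a2. All 188 genes kept their sign in each of the 12 fits that left out a library, and Ptbp2 and Slc6a2 were called in all 12.

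Genes induced by glucocorticoids rose in part: of the 18 tested members of the list, 5 were called higher and 0 lower (over all genes, 0.697% were called higher), 12 of the 18 had a positive difference, and the median was 0.38, against -0.01 over all genes. The median was 0.46 for swimming minus control and 0.30 for combination minus curcumin. The 5 were Per1, Klf9, Tsc22d3, Sgk1 and Errfi1, of which Tsc22d3 and Sgk1 were named after their values were seen.

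Per1, a repressor of the circadian clock that glucocorticoids induce directly, had 237, 152 and 248 CPM in swimming, against 31.7, 85.9 and 71.2 CPM in control. In combination it had 80.3, 86.2 and 70.3 CPM, against 49.4, 47.1 and 44.4 CPM in curcumin. The largest called changes, Per1 and Klf9 among them, were named only where neither pair of groups overlapped. Swimming without curcumin held the highest libraries. The log2 difference was 1.26 ± 0.24 (adjusted p = 0.0273), with 1.75 without curcumin and 0.75 with it, and these 2 values were not called different (interaction adjusted p = 0.373).

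Klf9, a Krüppel-like repressor and a glucocorticoid receptor target, had 111, 118 and 98.4 CPM in swimming, against 49.8, 83.2 and 35.0 CPM in control. It had 66.3, 66.5 and 73.9 CPM in combination, against 27.4, 46.1 and 41.3 CPM in curcumin. The difference was 0.91 ± 0.18 (adjusted p = 0.0288), nearly equal at both curcumin levels (0.96 and 0.85). Tsc22d3, which encodes the anti-inflammatory protein GILZ, had 114, 80.9 and 140 CPM in swimming, against 61.0, 55.9 and 71.9 CPM in control. Its libraries had 79.5, 80.0 and 82.5 CPM in combination, against 50.3, 68.3 and 60.4 CPM in curcumin (0.63 ± 0.13, adjusted p = 0.0349). Sgk1, a kinase that regulates ion transport, overlapped in the groups without curcumin, because control 2 was as high as the swimming libraries: 258, 227 and 289 CPM in swimming, against 146, 258 and 162 CPM in control. With curcumin it had 234, 235 and 227 CPM in combination, against 138, 164 and 152 CPM in curcumin (0.53 ± 0.12, adjusted p = 0.0471). Errfi1, an inhibitor of the EGF receptor, had no overlap at either level, with 598, 544 and 620 CPM in swimming, against 478, 455 and 379 CPM in control. It stood at 433, 446 and 433 CPM in combination, against 354, 359 and 351 CPM in curcumin (0.36 ± 0.06, adjusted p = 0.0222).

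Other members of the list did not pass. Fkbp5, a chaperone that dampens the receptor, stood at 0.30 (adjusted p = 0.14), Mt1, a metallothionein, at 0.61 (0.16), Dusp1, a MAP kinase phosphatase, at 0.40 (0.49), and Nr3c1, the receptor itself, at -0.07 (0.69). Lcn2, a neutrophil granule protein, stood at -0.98 (0.38). Leaving out single libraries, Per1 and Klf9 were called in 5 of 12 fits each and Errfi1 in 7, with largest adjusted p-values of 0.0801, 0.0811 and 0.0685. With the skeletal muscle level as a further covariate, chosen after seeing the data, Per1 stood at 1.29 (adjusted p = 0.0407) and Klf9 at 0.73 (adjusted p = 0.0352).

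Upstream sequences are shown for 5 of the induced genes because their known activators recognise short DNA elements. Windows of 250 bases before a RefSeq transcript start (GRCm38.p6) were searched on both strands for CACGTG (E-box, bound by clock factors), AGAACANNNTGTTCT (palindromic glucocorticoid response element), AGAACA (its core), TGACGTCA (cAMP response element) and TGACG (its core). Of 10 genes looked for, 9 had windows. Among 32851 windows of the same length, 6.02% held CACGTG, 0.00913% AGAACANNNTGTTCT, 16.1% AGAACA, 1.55% TGACGTCA and 17.8% TGACG. The sequences run 5′ to 3′ on the gene's strand, and capitals mark every match, on either strand, of these 5 motifs.
Per1 (chr11:69098699-69098948, plus strand): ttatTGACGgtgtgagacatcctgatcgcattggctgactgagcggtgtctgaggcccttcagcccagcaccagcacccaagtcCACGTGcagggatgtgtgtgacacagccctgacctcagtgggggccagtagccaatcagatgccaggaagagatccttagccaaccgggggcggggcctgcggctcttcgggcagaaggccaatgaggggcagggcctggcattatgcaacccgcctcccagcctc
Bhlhe41 (chr6:145865421-145865670, minus strand): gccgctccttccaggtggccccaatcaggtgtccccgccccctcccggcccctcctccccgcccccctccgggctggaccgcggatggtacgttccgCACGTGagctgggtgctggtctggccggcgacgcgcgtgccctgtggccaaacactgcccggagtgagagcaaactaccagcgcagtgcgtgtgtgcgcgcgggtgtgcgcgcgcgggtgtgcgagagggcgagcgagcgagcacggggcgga
Sgk1 (chr10:21993640-21993889, plus strand): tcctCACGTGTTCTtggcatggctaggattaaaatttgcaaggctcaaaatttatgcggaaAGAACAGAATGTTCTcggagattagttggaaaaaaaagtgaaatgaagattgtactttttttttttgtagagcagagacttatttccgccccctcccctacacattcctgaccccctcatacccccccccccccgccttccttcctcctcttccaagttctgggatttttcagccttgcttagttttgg
Errfi1 (chr4:150854820-150855069, plus strand): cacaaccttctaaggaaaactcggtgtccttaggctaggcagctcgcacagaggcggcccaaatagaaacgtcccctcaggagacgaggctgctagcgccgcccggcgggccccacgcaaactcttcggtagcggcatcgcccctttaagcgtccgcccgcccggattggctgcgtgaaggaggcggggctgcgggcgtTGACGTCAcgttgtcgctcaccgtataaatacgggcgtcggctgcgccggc
Nr4a1 (chr15:101266596-101266845, plus strand): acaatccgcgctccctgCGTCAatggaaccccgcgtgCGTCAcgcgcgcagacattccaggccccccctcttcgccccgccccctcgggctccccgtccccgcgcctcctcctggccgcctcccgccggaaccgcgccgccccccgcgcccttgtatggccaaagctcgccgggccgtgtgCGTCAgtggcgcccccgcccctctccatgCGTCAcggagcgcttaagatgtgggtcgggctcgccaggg

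Per1 has 2 starts in RefSeq. Its window shown held 1 E-box and 1 TGACG core, and its other window held no E-box. The window of Bhlhe41 held 1 E-box. For Sgk1, which has 6 starts in RefSeq, the fifth start is shown because it held a palindromic glucocorticoid response element, and the other 5 held none. The shown window also has an E-box that shares bases with an AGAACA core read on the other strand. The second of 2 Errfi1 starts is shown, with a cAMP response element. Nr4a1 held 4 TGACG cores, all on the opposite strand and therefore read here as CGTCA. Over all 18 windows of the 9 genes, 4 held CACGTG, 1 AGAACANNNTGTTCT, 4 AGAACA, 1 TGACGTCA and 8 TGACG. Of the genes with no window shown, Klf9 and Fosb had a TGACG core, Klf6 an E-box, and Tsc22d3 an AGAACA core at 1 of its 3 starts and a TGACG core at another. The windows shown were picked for their matches, so their motif content is not to be read against the share over all windows. A match describes letters in these windows only, and no binding was measured.

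Bhlhe41 (also called Dec2), a clock repressor, was the other called member of the circadian clock list. Its level was 54.8, 47.5 and 46.9 CPM in swimming, against 23.6, 28.6 and 25.8 CPM in control. In combination it was 34.6, 40.8 and 34.8 CPM, against 27.2, 20.4 and 30.3 CPM in curcumin. The difference was 0.72 ± 0.11 (adjusted p = 0.0192). Of 21 tested clock genes, 2 were called, both higher (over all genes, 0.697% were called higher), and the list median was 0.16. The other clock genes gave no call: Arntl, the E-box activator, stood at 0.54 (adjusted p = 0.104), Nr1d1, its repressor, at 0.32 (0.28), Per2 at 0.06 (0.87), Dbp at -0.35 (0.52) and Tef, an output factor, at -0.33 (0.0875).

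Of 25 tested immediate early genes, 3 were called higher and 0 lower (over all genes, 0.697% were called higher), while the list median of 0.05 was close to that of all genes. Fosb, a subunit of the AP-1 transcription factor, had 36.9, 16.8 and 46.2 CPM in swimming, against 14.4, 16 and 24.1 CPM in control. Combination libraries had 65.7, 70.7 and 59.8 CPM, against 15.5, 20.0 and 17.5 CPM in curcumin. Swimming 2 lay inside the control range, whereas all combination libraries lay above every curcumin library, and the difference was 1.39 ± 0.25 (adjusted p = 0.0229). Nr4a1, an orphan nuclear receptor, had 38.6, 31.8 and 35.3 CPM in swimming, against 22.8, 32.8 and 30.6 CPM in control. Its combination libraries had 55.4, 62.4 and 53.0 CPM, against 20.4, 26.8 and 22.5 CPM in curcumin (0.79 ± 0.17, adjusted p = 0.0409). The Nr4a1 difference was 0.29 without curcumin and 1.29 with it (interaction adjusted p = 0.0846). Klf6, a Krüppel-like factor, had 310, 306 and 316 CPM in swimming, against 194, 271 and 218 CPM in control. Combination had 289, 295 and 287 CPM, against 216, 227 and 230 CPM in curcumin, with no overlap in either pair (0.41 ± 0.07, adjusted p = 0.0216). Most of the list showed no call, among them Egr1 (0.87, adjusted p = 0.0804), Fos (0.43, 0.53), Jun (0.04, 0.88) and Atf3 (0.01, 0.98).

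**Figure D2:**
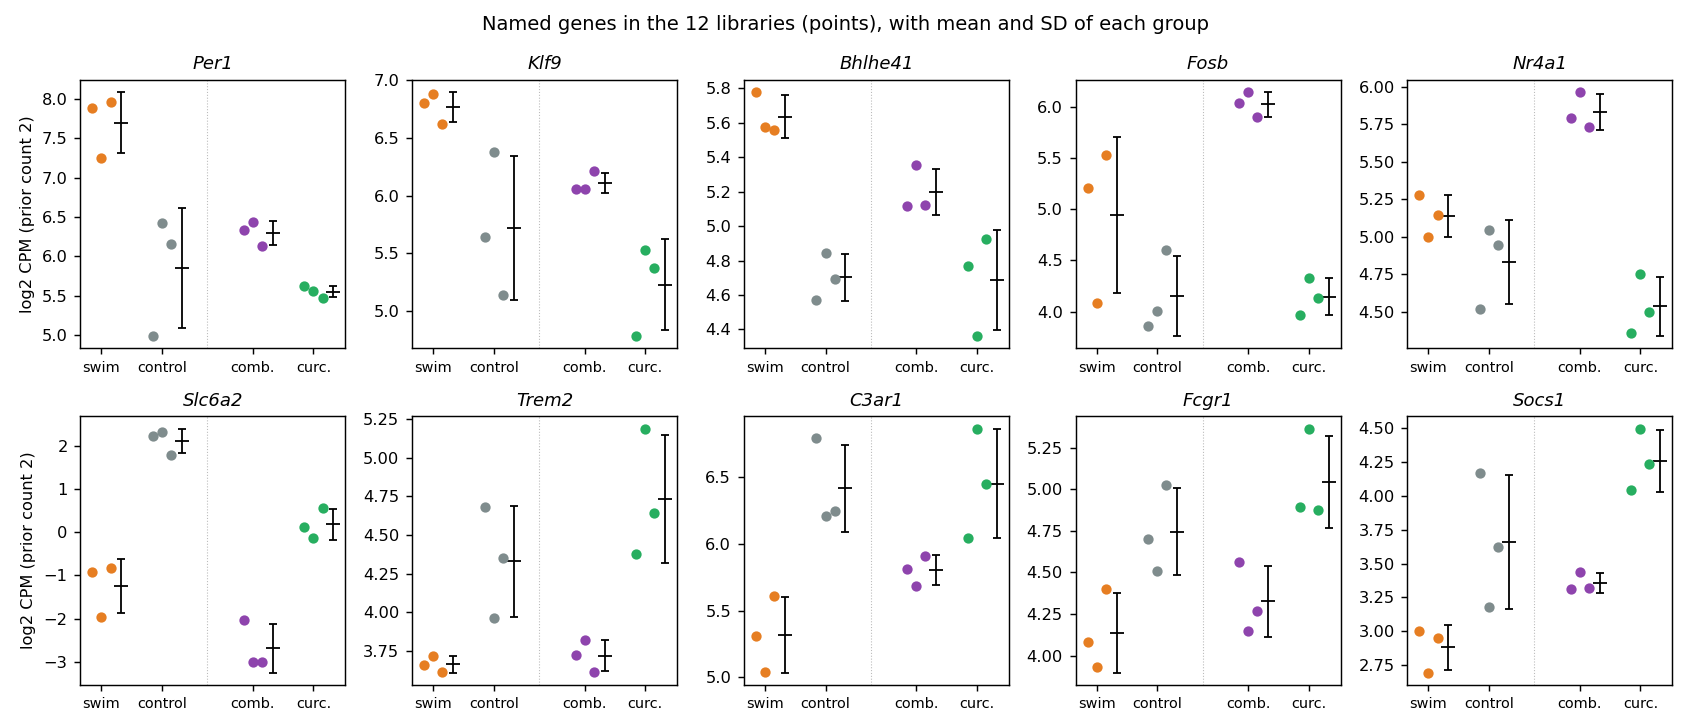
Each panel shows 1 gene, with log2 CPM (prior count 2) on the y axis and the 4 groups on the x axis: swimming beside control, then combination beside curcumin. Points are libraries and the black bar is the mean with its SD (n = 3). Per1, Klf9 and Bhlhe41 are higher in both swimming groups, Fosb and Nr4a1 are highest in combination, and Slc6a2, Trem2, C3ar1, Fcgr1 and Socs1 are lower in both.

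Slc6a2, the noradrenaline transporter that clears the neurotransmitter at sympathetic nerve endings, had the smallest p of all genes. It lies on chromosome 8, 93686707 to 93728295 on the plus strand in the deposited table (GRCm39 per the submitters' processing notes). Its raw counts were 6, 2 and 7 in swimming, against 75, 82 and 57 in control. They were 2, 0 and 0 in combination, against 16, 12 and 21 in curcumin. Both swimming groups were near the limit of detection (3 counts correspond to 0.175 to 0.201 CPM). Summed counts were 17 in the 6 libraries with swimming against 263 without, 15-fold lower (95% exact interval 9.18 to 26.1, counting error only). The fitted difference was -3.86 ± 0.42 (adjusted p = 0.0053), and it was called in all 12 fits that left out a library.

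Slc6a2 was the only called gene among 9 tested of the noradrenergic list, whose median was -0.02 (over all genes, 1.38% were called). Maob, a mitochondrial enzyme that degrades amines, stood at 1.06 ± 0.24 (adjusted p = 0.0513). The adrenergic receptors Adrb1 (0.01, adjusted p = 1) and Adra2a (0.42, 0.47) did not pass. Of the nerve and Schwann cell markers, 0 of 6 were called, with a summed level of 66.9 to 70.0 CPM in swimming, 91.5 to 104 CPM in combination, 73.4 to 77.6 CPM in curcumin and 63.1 to 67.0 CPM in control.

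Other genes that rose were varied in function. Il1r2, a decoy receptor that traps interleukin-1, had 38.6, 33 and 37.6 CPM in swimming, against 4.78, 16.9 and 8.75 CPM in control. It had 18.8, 19.4 and 19.1 CPM in combination, against 10.5, 6.40 and 9.70 CPM in curcumin (1.48 ± 0.25, adjusted p = 0.0216). Swimming without curcumin was higher than any other group. Adamts1, a secreted protease that cleaves proteoglycans, had 142, 143 and 106 CPM in swimming, against 40.6, 96.9 and 46.3 CPM in control. With curcumin it had 104, 105 and 103 CPM in combination, against 52.9, 62.9 and 55.4 CPM in curcumin (0.98 ± 0.18, adjusted p = 0.0229). Gucy2f, a guanylate cyclase known from the retina, showed the largest difference among the genes that rose by the rule for named genes. Its level was 4.22, 2.97 and 8.58 CPM in swimming, against 0.969, 2.48 and 0.583 CPM in control, with swimming 2 only slightly above control 2. It was 12.2, 15.2 and 16.7 CPM in combination, against 0.121, 2.29 and 1.35 CPM in curcumin (2.77 ± 0.51, adjusted p = 0.0263).

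The remaining named genes that rose were Nobox, an oocyte transcription factor present at 1.00 to 1.81 CPM in the swimming libraries (1.79, adjusted p = 0.0368), Tent5b, a poly(A) polymerase (1.00, 0.0216), and Tmem154, a membrane protein (0.95, 0.0263). Akap5, which anchors protein kinase A (0.91, 0.0368), Cables1, a cyclin-dependent kinase adaptor (0.81, 0.0406), and Dyrk3, a kinase that dissolves stress granules (0.73, 0.0164), also rose. Dyrk3 was called in 11 of 12 fits that left out a library, and Cables1 in 2. Ptbp2, a splicing regulator named after its values were seen, had 89.9, 98.8 and 111 CPM in swimming, against 61.2, 64.4 and 62.1 CPM in control. It had 80.7, 79.2 and 85.7 CPM in combination, against 58.1, 49.2 and 64.0 CPM in curcumin (0.60 ± 0.08, adjusted p = 0.0139).

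Among the named genes that fell were several known from macrophages and other myeloid cells, of which Trem2 and Fcgr1 belonged to the macrophage list and the others to no such list, while Il1r2 of the neutrophil list rose. Trem2, a lipid-sensing receptor of macrophages, had 12.5, 13 and 12.1 CPM in swimming, against 25.5, 15.4 and 20.2 CPM in control. In combination it had 13.1, 14.0 and 12.1 CPM, against 20.6, 36.3 and 24.8 CPM in curcumin. All 6 libraries with swimming lay below all 6 without, and the difference was -0.88 ± 0.15 (adjusted p = 0.0216). C3ar1, the receptor of the complement fragment C3a, had 39.5, 32.8 and 48.7 CPM in swimming, against 110, 73.8 and 75.6 CPM in control. It had 55.9, 51.3 and 59.97 CPM in combination, against 65.7, 116 and 86.9 CPM in curcumin (-0.89 ± 0.16, adjusted p = 0.0216).

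Fcgr1, the high-affinity IgG receptor, had 16.8, 15.1 and 21 CPM in swimming, against 25.9, 22.6 and 32.5 CPM in control. Combination had 23.5, 17.6 and 19.1 CPM, against 29.6, 41.1 and 29.2 CPM in curcumin (-0.67 ± 0.13, adjusted p = 0.0273). Both pairs of groups were separate. Further myeloid genes that fell were Clec4a1, a C-type lectin receptor (-1.88, adjusted p = 0.0397), Fcna, the complement-activating ficolin A (-2.07, 0.0437), and Cd300lb, an activating receptor (-1.36, 0.0282). Pirb, an inhibitory receptor with near-identical relatives whose reads may be shared, fell as well (-0.86, 0.0339).

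Of 19 tested macrophage markers, 2 were called lower and 0 higher (over all genes, 0.682% were called lower), 16 had a negative difference, and the median was -0.52. It was -0.43 without curcumin and -0.68 with it. The summed level of the list was 4594 to 4913 CPM in swimming, 4638 to 4721 CPM in combination, 4997 to 7975 CPM in curcumin and 5421 to 7132 CPM in control, so the sums did not overlap within either curcumin level. Apoe, a lipid carrier that macrophages secrete (-0.86, adjusted p = 0.058), Adgre1, which encodes F4/80 (-0.66, 0.0739), Csf1r, the receptor of their growth factor (-0.52, 0.0772), and Cd68 (-0.54, 0.0944) did not pass. Abundant genes such as Apoe weigh most in the summed level. Apoe did not overlap at either curcumin level, whereas Adgre1 and Csf1r overlapped only without curcumin and Cd68 overlapped at both levels. Spp1 (0.28, 0.16) and Mertk (0.46, 0.13) had positive differences. Trem2 was called in 7 and Fcgr1 in 4 of 12 fits that left out a library, and whether the myeloid genes above fell within cells or with the number of cells was not tested.

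Most other immune lists had negative medians and few calls, while the type I interferon list had a median of 0.04 with 0 of 21 called. Socs1, a feedback inhibitor of interferon signalling, had 7.90, 6.34 and 7.58 CPM in swimming, against 17.9, 8.93 and 12.2 CPM in control. It had 9.81, 10.7 and 9.86 CPM in combination, against 16.3, 22.5 and 18.8 CPM in curcumin (-0.88 ± 0.15, adjusted p = 0.0216). Socs1 was the only called gene of 24 in the interferon-gamma and MHC class I list (median -0.18), while 1.38% were called over all genes. MHC class II genes had 0 of 8 called and a median of -0.38, with H2-Eb1 at -0.79 (adjusted p = 0.0971) and their regulator Ciita at -0.51 (0.11). T cell markers had 0 of 17 called (median -0.37), with Cd3e at -0.69 (0.234), Cd8a at -0.61 (0.315) and Tcf7, a factor of naive and memory T cells, at 0.37 (0.221). NK and cytotoxic genes had 0 of 13 called (median -0.26), with Nkg7 at -0.74 (0.206), Prf1, which encodes perforin, at -0.71 (0.259) and Gzmd, a granzyme, at -0.60 (0.358). Without control 2, Gzmd stood at -0.19 (0.67). The granzymes Gzma (0.12, 0.921), Gzmb (0.06, 0.951) and Gzmc (0.12, 0.79) were positive, and the other members were negative. Swimming 2 was the lowest library for T cell markers (-1.46 mean centred log2 CPM, against -0.40 to 0.74 in the other 11). Monocyte and dendritic cell markers had 0 of 14 called (median -0.35), with Ccr2 at -0.74 (0.0771), Siglech at -2.82 (0.0803) and Zbtb46 at -0.36 (0.0914). Siglech was near the limit of detection, at a mean of 0.11 CPM with swimming and 0.92 CPM without. Cd80 (0.76, 0.144), Ccl22 (0.52, 0.351), Ccr7 (0.19, 0.753) and Fscn1 (0.08, 0.647) were positive, and the other members were negative.

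Among NF-kB targets, 1 of 22 was called (over all genes, 1.38% were). This was Traf1, a signalling adaptor of TNF receptors, which was lower (-0.42 ± 0.07, adjusted p = 0.0216). B and plasma cell markers had 0 of 3 called, with Cd22 at -1.56 (0.0568), Jchain at -1.10 (0.222) and Pax5 at 0.69 (0.441). Mast cell and eosinophil markers had 0 of 6 called, with Tpsb2 at -1.53 (0.317), Mcpt4 at -1.30 (0.388) and Cpa3 at -1.04 (0.391). All of these were negative only with curcumin (-3.48, -2.80 and -2.43) and stood at 0.25, 0.50 and 0.32 without it. Of the other members, Il1rl1 stood at -0.40, Siglecf at 0.25 and Kit at 0.06. Neutrophil markers had 1 of 13 called, Il1r2 (over all genes, 1.38% were called). The list median was -0.48, with 0.17 without curcumin and -1.31 with it. Csf3r, the receptor of G-CSF, stood at -0.77 (0.238) and Padi4, which citrullinates histones, at -0.20 (0.16).

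**Figure D3:**
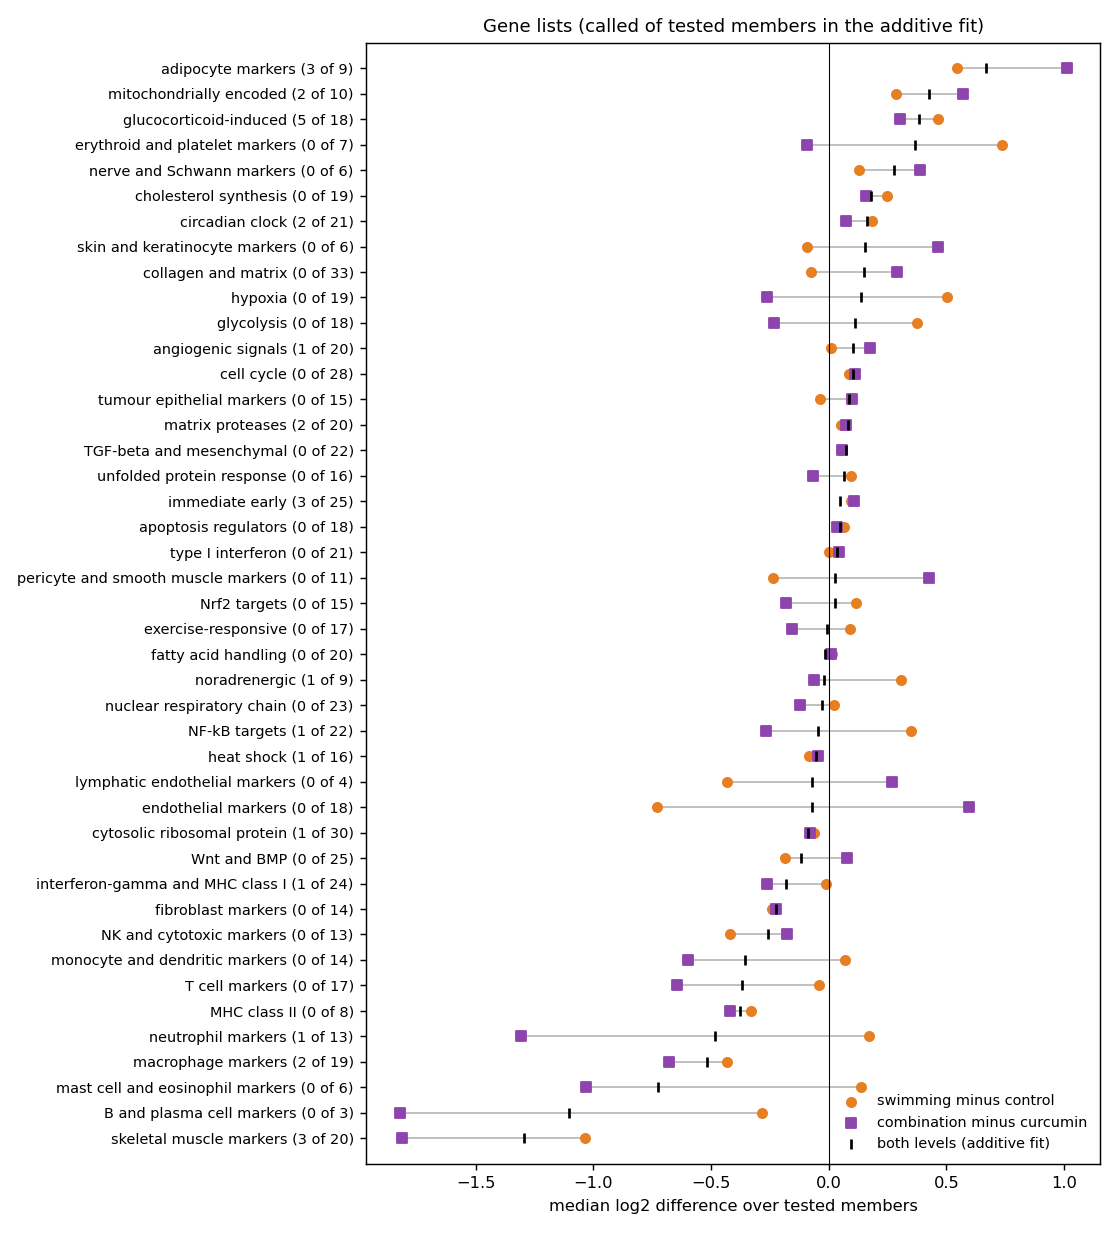
Each line is 1 of the 43 gene lists, ordered by its median log2 difference on the x axis over the tested members. Circles give swimming minus control, squares combination minus curcumin and black ticks the additive fit, and the numbers after each name are called of tested members. Skeletal muscle markers have the lowest median (-1.29) and adipocyte markers the highest (0.67), and endothelial, hypoxia and neutrophil lists have medians of opposite sign at the 2 curcumin levels.

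Several named genes that fell belonged to no list. Glp1r, the receptor of glucagon-like peptide 1, had 0.335, 0.727 and 0.376 CPM in swimming, against 1.64, 1.36 and 1.28 CPM in control. It had 0.847, 1.63 and 1.20 CPM in combination, against 2.53, 4.96 and 2.76 CPM in curcumin (-1.51 ± 0.28, adjusted p = 0.0263). Fam20c, a Golgi kinase that phosphorylates secreted proteins (-1.03, 0.0216), Tcte2, a t-complex gene (-1.08, 0.0216), and Mterf1b, a mitochondrial transcription factor with a near-identical copy (-0.87, 0.0368), were also lower. Nrp1, a co-receptor of VEGF and semaphorins, fell at both curcumin levels. Nrp1 was the only called gene of 20 in the angiogenic list (over all genes, 1.38% were called). It had 31.5, 26.4 and 38.5 CPM in swimming, against 51.2, 41.8 and 52.8 CPM in control. Combination had 33, 32.7 and 36.5 CPM, against 51.9, 47.6 and 49.3 CPM in curcumin (-0.57 ± 0.09, adjusted p = 0.0199).

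Markers of tissues that can adjoin a tumour were among the called genes. Skeletal muscle genes had 3 of 20 called lower and 0 higher (over all genes, 0.682% were called lower), and all 20 had a negative difference, with a median of -1.29. Myh4, a myosin of fast fibres, had 8, 0 and 19 counts in swimming, against 211, 1 and 1785 counts in control. It had 95, 111 and 118 counts in combination, against 2063, 1305 and 1746 counts in curcumin (-4.62 ± 0.87, adjusted p = 0.0266). Ckm, the muscle creatine kinase, had 37, 0 and 58 counts in swimming, against 199, 12 and 513 counts in control. It had 37, 40 and 48 counts in combination, against 564, 253 and 382 counts in curcumin (-3.05 ± 0.68, adjusted p = 0.0462). Without curcumin the groups overlapped, since control 2 was nearly free of muscle transcripts, and with curcumin they were far apart. Pvalb, a calcium buffer of fast fibres, had 5 counts with swimming and 109 without. The summed level of the list was 147 to 475 CPM in swimming, 284 to 304 CPM in combination, 712 to 804 CPM in curcumin and 81.8 to 1048 CPM in control. With this level as a covariate, 213 genes were called, 117 of them among the 188, and of 38 called named genes 10 lost the call. These were Myh4 (adjusted p = 0.467), Pvalb (0.603), Ckm (0.0949), Nr4a1 (0.0721), Clec4a1 (0.0796), Pirb (0.0607), Mterf1b (0.061), Nobox (0.0589), Plaur (0.0593) and Cables1 (0.0583).

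Adipocyte markers had 3 of 9 called, all higher (over all genes, 0.697% were called higher), and a median of 0.67. Cidec, a lipid droplet protein, had 8, 0 and 10 counts in swimming, against 0, 0 and 1 counts in control. It had 27, 27 and 32 counts in combination, against 0 in each curcumin library, and the ratio with swimming over without, scaled to library size, was 107 (95% exact interval 18.9 to 4284, counting error only). Cfd, the adipokine adipsin, had 11, 0 and 26 counts in swimming, against 0, 1 and 1 counts in control. Its counts were 67, 43 and 45 in combination, against 2, 0 and 4 in curcumin (ratio 24.8, 12.3 to 58.3). Pck1, an enzyme of glycerol and glucose synthesis, had 77 counts with swimming and 2 without (ratio 39.8, 10.6 to 334). Swimming 2 held 0 counts of all 3 genes, and the other 5 libraries with swimming exceeded every library without it. The adjusted p-values of Cidec, Pck1 and Cfd were 0.0192, 0.0216 and 0.0216. Other fat markers did not pass, among them Pparg, the master regulator of fat cells (1.09, 0.15), and Fabp4 (0.28, 0.62). The summed level was 40.9 to 55.7 CPM in swimming, 75.6 to 81.3 CPM in combination, 48.7 to 66.5 CPM in curcumin and 37.3 to 65.7 CPM in control, and the part of adjacent tissue in any result was not tested.

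**Figure D4:**
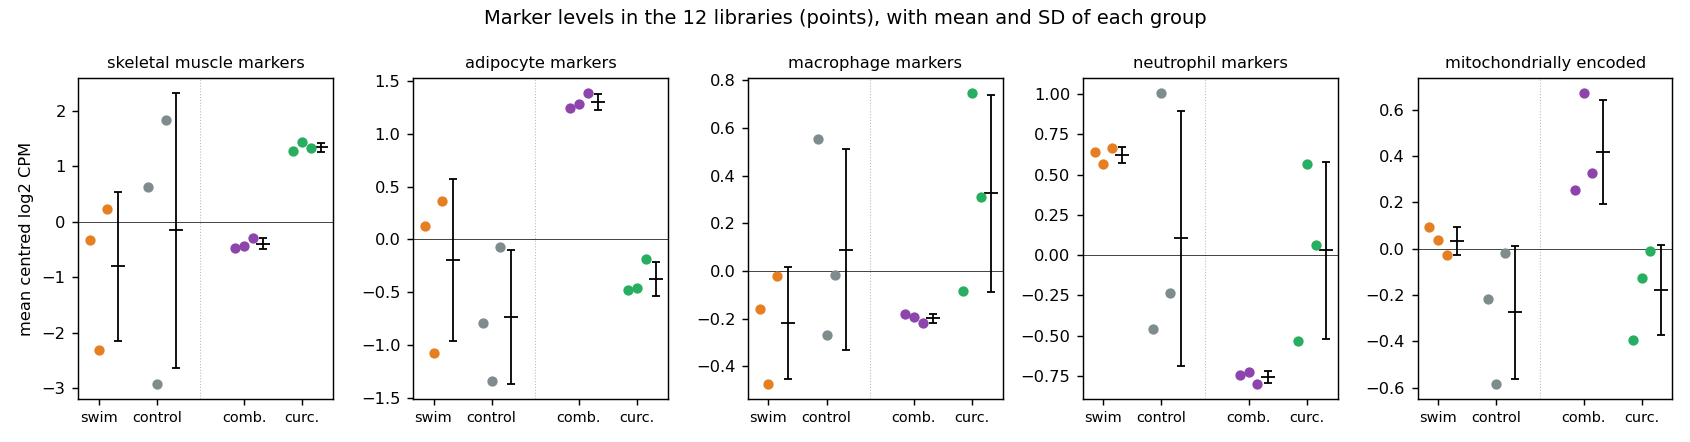
Panels show the mean centred log2 CPM of 5 lists on the y axis for each library (points) by group on the x axis, with the mean and SD of each group in black (n = 3). Control 2 (-2.93) and swimming 2 (-2.32) lie far below the rest for skeletal muscle, and combination libraries are highest for fat (1.24 to 1.39).

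Of 10 tested mitochondrially encoded transcripts, 2 were called higher (over all genes, 0.697% were) and 8 did not pass. All 10 had a positive difference (median 0.43), the smallest being mt-Co3 at 0.10 (adjusted p = 0.751). mt-Co1, a subunit of cytochrome c oxidase, had 28022, 26829 and 23374 CPM in swimming, against 20772, 16762 and 21743 CPM in control. It had 26600, 32761 and 27459 CPM in combination, against 17221, 20853 and 20837 CPM in curcumin (0.48 ± 0.09, adjusted p = 0.0297). Neither pair overlapped. mt-Nd2, a subunit of complex I, stood at 0.60 ± 0.12 (adjusted p = 0.0368) and mt-Nd5 at 0.62 ± 0.15 (0.058). Mitochondrial transcripts took 4.60 ± 0.26% of counts in swimming, 5.33 ± 0.67% in combination, 3.76 ± 0.37% in curcumin and 3.68 ± 0.68% in control (SD, n = 3 each). This share is also a measure of RNA quality, whose part in the results was not tested. Nuclear-encoded respiratory chain genes had 0 of 23 called and a median of -0.03. Ribosomal protein genes had 1 of 30 called, against 1.38% over all genes (Rps18, 0.37, adjusted p = 0.0462), and a median of -0.09.

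The exercise-responsive, hypoxia, glycolysis and cholesterol synthesis lists gave 0 calls. Exercise-responsive genes had 0 of 17 called (median -0.01), with mixed signs. Il6 stood at 0.71 (adjusted p = 0.25) and Apln at 0.39 (0.085), whereas Bdnf stood at -0.47 (0.103) and Dcn at -0.63 (0.118). Hypoxia genes had 0 of 19 called: the median was 0.50 without curcumin, where 18 of 19 were positive, and -0.26 with it, where 2 of 19 were. Vegfa, the main angiogenic factor, had 258, 297 and 213 CPM in swimming, against 179, 170 and 96.8 CPM in control. It had 189, 187 and 183 CPM in combination, against 200, 234 and 217 CPM in curcumin. The groups were separate at both levels but in opposite directions (0.28 ± 0.19, adjusted p = 0.461; interaction adjusted p = 0.181). Glycolysis genes had 0 of 18 called, with a median of 0.38 without curcumin and -0.23 with it. In the interaction test, 0 hypoxia and 0 glycolysis genes were called, with smallest adjusted p-values of 0.0628 and 0.0613. Cholesterol synthesis genes had 0 of 19 called, although 18 were positive (median 0.18). Heat shock genes had 1 of 16 called, against 1.38% over all genes: the chaperone Hsph1 (-0.42, adjusted p = 0.0399).

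Lists of cell cycle, tumour epithelial, matrix, fibroblast, and erythroid and platelet genes gave few calls. Cell cycle genes had 0 of 28 called (median 0.10). Mki67, a marker of proliferation, had 512, 571 and 362 CPM in swimming, against 732, 195 and 568 CPM in control. It had 821, 892 and 802 CPM in combination, against 591, 605 and 661 CPM in curcumin (0.19 ± 0.24, adjusted p = 0.709). The groups overlapped without curcumin and were separate with it, at -0.05 and 0.44 (interaction adjusted p = 0.756). Tumour epithelial markers had 0 of 15 called (median 0.09). Epcam, an epithelial adhesion protein, had 286, 302 and 279 CPM in swimming, against 331, 368 and 316 CPM in control. It had 330.0, 331 and 333 CPM in combination, against 271, 254 and 259 CPM in curcumin. Both pairs were separate, in opposite directions (-0.23 and 0.34, interaction adjusted p = 0.0583), and the additive difference was 0.06 (adjusted p = 0.789). The mesenchymal filament gene Vim stood at -0.03 (0.919). Matrix proteases had 2 of 20 called, both higher (over all genes, 0.697% were called higher). These were Adamts1 and Plaur, the urokinase receptor (0.29, adjusted p = 0.0437), while Mmp13, a collagenase, stood at 0.54 (0.12). Collagen and matrix genes had 0 of 33 called (median 0.15), and Lamc3, a laminin chain, stood at 0.37 (0.507). Fibroblast markers had 0 of 14 called (median -0.22), with Pdgfra at -0.34 (0.0947), Ly6a at -0.27 (0.116) and Scara5 at -0.82 (0.281). The fibroblast markers Clec3b (0.17, 0.921), Gsn (0.15, 0.621), Mfap5 (0.05, 0.907), Fap (0.05, 0.943) and Islr (0.03, 0.951) were positive, and the other members were negative. Erythroid and platelet markers had 0 of 7 called (median 0.36), with Pf4 at 0.40 (0.362), Alas2 at 0.39 (0.452) and Hba-a1 at 0.36 (0.591). Pf4, Alas2 and Hba-a1 stood at 0.74, 0.56 and 0.77 without curcumin and at 0.04, 0.21 and -0.10 with it.

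The swimming effect differed with curcumin for 19 genes (0.139% of 13638 tested), and in all 19 its sign was opposite at the 2 levels. Endothelial genes took opposite signs at the 2 levels without being called in the additive fit, where 0 of 18 passed and the median was -0.07. For swimming minus control 0 of the 18 were positive (median -0.73), and for combination minus curcumin 17 were (median 0.60). Ptprb, the endothelial tyrosine phosphatase VE-PTP, had 12.5, 11.8 and 13.6 CPM in swimming, against 27, 28.1 and 30.8 CPM in control. It had 32.7, 28.9 and 32.7 CPM in combination, against 25.3, 18.2 and 22.9 CPM in curcumin. Neither pair overlapped, the differences being -1.18 ± 0.13 and 0.51 ± 0.13 (interaction 1.69 ± 0.18, adjusted p = 0.00816). Plvap, a protein of fenestrated capillaries, was the other called endothelial marker (-0.76 and 0.57, interaction adjusted p = 0.0395), and Pecam1, which encodes CD31, stood at -0.75 and 0.39 (0.0548). The summed endothelial level was 486 to 606 CPM in swimming, 864 to 935 CPM in combination, 696 to 701 CPM in curcumin and 665 to 868 CPM in control. Pericyte and smooth muscle markers had medians of -0.24 and 0.43 at the 2 levels, with 0 of 11 called in the additive fit.

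**Figure D5:**
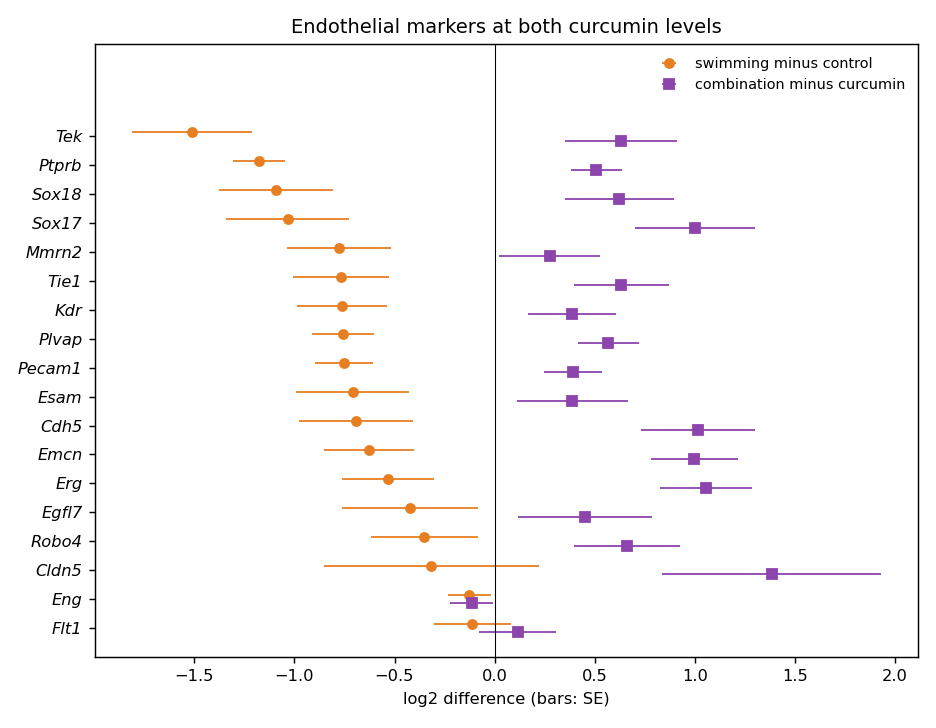
Each row is 1 of the 18 endothelial markers, with the log2 difference on the x axis. Circles give swimming minus control, squares combination minus curcumin, and bars the standard error. All 18 circles lie below 0 and 17 of 18 squares above it, with Eng as the exception.

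Further named genes of the interaction had mixed functions. Erbb3, a receptor of neuregulin, stood at -0.71 without curcumin and 0.66 with it, and Aspa, an enzyme that cleaves N-acetylaspartate, at -1.0 and 2.04 (interaction adjusted p = 0.022 for both). Gbe1, which branches glycogen, stood at 0.57 and -0.68 and Slpi, a secreted protease inhibitor, at 0.34 and -1.29 (0.022 for both). Cwc22, a splicing factor with near-identical copies that make its counts uncertain, stood at 0.65 and -2.29 (0.022). The number of interaction genes was 0 without swimming 1, combination 1 or combination 3, 90 without swimming 2, and 15 without swimming 3. It was 1 without combination 2 or curcumin 3, 4 and 6 without curcumin 1 and 2, and 26, 455 and 20 without control 1, 2 and 3. With the combination libraries summed it was 0.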

How the data were processed

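RNA of 12 tumour samples was sequenced, and the authors deposited whole read counts per gene and FPKM values (counts relative to gene length and library size). Per the submitters' processing notes, the tools were cutadapt for trimming, TopHat2 or HISAT2 for alignment, HTSeq 0.9.1 for counting and DESeq 1.30.0, and the build was GRCm39, whereas the labels' protocol names mm9 and HISAT2 2.0.5. Only 501 of 21782 genes share their start with a GRCm38 annotation, so gene coordinates are printed as deposited and promoter sequences come separately from RefSeq GRCm38.p6. Strand setting and the handling of reads shared by near-identical genes are not given in the sources used here. The deposited FPKM values matched the counts in 184877 of 184877 values above 0 (relative tolerance 1e-05) and served only for that check.

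Groups follow the sample titles. Counts were filtered (filterByExpr, minimum count 10, minimum total 15), scaled by TMM and tested with edgeR 4.0.16 under R 4.3.3 by quasi-likelihood F-tests, with curcumin and swimming as terms (9 residual degrees of freedom). The interaction came from a fit with 4 group means (8 residual degrees of freedom). Log2 CPM used a prior count of 2. The pipeline was tested on simulated data. The 43 gene lists (790 entries, 766 symbols, 4 of them not matched in the table) and the comparison itself were chosen with earlier results of these data known, and lists are described by counts and medians without a test. Named genes were the 12 largest called changes per direction among ordinary symbols with at least 1 CPM in the higher arm and no overlap at both curcumin levels, the 3 smallest p-values of each list with 2 called members or an absolute median of 0.2, the 6 smallest interaction p-values of opposite sign, and a panel of 10. Other genes were named after their values were seen. Intervals and floors (3 counts) cover counting error only. Alternatives used DESeq2 1.42.0, limma 3.58.1, other scaling, filters and covariates, and left out libraries. Replicate numbers did not pair the samples.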

Additional observations from a re-analysis of the deposited data

Results flagged for a closer look

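Among 166 sets of 6 libraries (a named gene with or without swimming), 14 held a library far from the other 5, and chance flags about 1 in 20 such sets. Control 2 stood low on the log2 CPM scale for Ciita (5.56), Myh4 (-2.45), Ckm (-0.26) and Mki67 (7.61). Swimming 2 stood low for Ciita (5.22), Ckm (-3.01), Apoe (8.73) and Nkg7 (0.93) and high for Vim (11.5). Control 3 stood apart for Cidec (-2.45, its 1 count against 0 in the other 5 libraries) and low for Vegfa (6.60). Curcumin 1 was low for Nobox (-2.44), curcumin 3 for Cables1 (0.49) and swimming 3 for Fam20c (3.28).

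The swimming effect of 6 named genes differed between curcumin levels in edgeR's interaction test. With curcumin it was more positive by 1.69 for Ptprb (adjusted p = 0.00816), by 1.37 for Erbb3 and by 3.04 for Aspa (0.022 each). It was more negative for Cwc22 (-2.94), Gbe1 (-1.25) and Slpi (-1.63), again at 0.022 each. Without control 2 their adjusted p-values lay between 0.000557 and 0.00469. Of the 12 fits that left out a library, Ptprb was called in 9, Cwc22, Erbb3 and Aspa in 6, and Gbe1 and Slpi in 5.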

How the results depend on the processing

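The number of genes called for swimming (188, with 95 higher and 93 lower) moved by more than 1.5 times under several alternatives, and the cause was not tested. It was 796 (407 higher, 389 lower) with DESeq2, 1351 (671 and 680) with limma voom weighted by group, 49 (24 and 25) without the curcumin covariate and 518 (245 and 273) without control 2 and swimming 2. With the combination libraries summed into 1 it was 1 (0 higher, 1 lower), with 1535 genes at an unadjusted p under 0.05. Replicate numbers did not pair the samples (same-numbered libraries correlated at -0.25 to 0.16, and 5 of 12 correlated best with their own number). With the replicate block 49 genes were called (23 and 26), all among the 188, and 5 in the interaction. In the 4-group fit 145 genes were lower. Leaving out 1 library gave 2 to 577 genes, 1 to 273 of them higher and 1 to 304 lower. RLE scaling (189 genes), omission of the filter (145), a minimum mean count of 50 (210) and the muscle covariate (213, chosen after seeing the data, 117 of them among the 188) stayed within 1.5 times.

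The interaction count (19) was 209 with DESeq2, 34 with RLE scaling, 40 without a filter, 32 with a minimum mean count of 50, 36 with limma voom, 0 with the combination libraries summed (573 at an unadjusted p under 0.05) and 993 without control 2 and swimming 2. It ranged over 0 to 455 when 1 library was left out.

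Of 1873 values of named genes under alternatives, 1452 kept direction and call, 363 lost the call, 51 gained one and 7 reversed, all in genes not called. Pecam1 was 0.12 with limma voom, and Epcam was -0.028 with the combination libraries summed and -0.0239 with the muscle covariate. Vim was 0.00903 with the combination libraries summed, and when 1 library was left out it ranged from -0.122 to 0.0668, with 0.0113 without swimming 3 and 0.000159 without combination 2. Of 989 list medians, 981 moved by less than the spread between replicates and 8 moved by more.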

Other observations

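Ccl21a, a chemokine that lymphatic vessels and lymph node stroma make for dendritic cells and T cells, had 0 counts in each of the 6 libraries with swimming. It had 29, 10 and 9 counts in curcumin and 12, 0 and 51 counts in control, in all 111 against a floor of 3 summed counts, at least 35.8-fold lower with swimming for counting error only. In edgeR's test over all genes it did not pass (adjusted p = 0.069), and swimming and control overlapped. Adipoq, which encodes adiponectin and was not tested for lack of counts, had 1, 0 and 1 counts in swimming, against 0, 0 and 2 counts in control. In combination it had 14, 10 and 12 counts, against 0 in each curcumin library.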
